A study of Homo sapiens with 4 samples.

Results

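The 3′-UTR is the stretch of an mRNA between the stop codon and the poly(A) tail, and it holds many of the sites through which RNA-binding proteins and microRNAs act on mRNA stability and translation. HuR, the product of ELAVL1, is a ubiquitous RNA-binding protein known for reading AU-rich and U-rich elements in 3′-UTRs and for protecting the mRNAs it binds from decay. RNA bound to HuR in MDA-MB-231 cells, an established human triple-negative breast cancer line, was isolated with a mouse anti-HuR antibody and sequenced. Mouse IgG served as the control antibody, the labels name no treatment, and there were 2 samples for each antibody, 4 in all. Peaks, which are short regions where reads pile up, were listed once for the whole experiment, so no value belongs to a single sample or to IgG. The 4 samples share the cell line and its culture, and the list holds no expression level against which the identity of the cells could be checked.

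Peaks were taken as 3′-UTR peaks when the deposited annotation of the peak centre began with that term. There were 2062 such peaks among 14149, or 14.6% of the list, and they held 25% of its summed score. Each was 347 bp long. The host gene was that of the RefSeq transcript named in the annotation, which could be matched for 2061 peaks and gave 1222 genes. The remaining peak, with a score of 75.6, was left out of counts of genes. The annotated exon was the last exon of its transcript for 2060 peaks, and 27 peaks lay in transcripts of 1 exon.

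Short stretches of these 3′-UTRs are shown first, because U-rich and AU-rich sequence is what HuR is known to recognise. For the highest peak of 6 of the 10 genes with the highest scores, and of the genes followed in the study, the 30 bases with the most T inside both the peak and the 3′-UTR were taken from the strand of the gene (hg38). Capitals mark the pentamer ATTTA, the core of the classical AU-rich element.
ACTB (chr7:5527630-5527659, − strand): ttttttttgttttgttttggtttttttttt
AXL (chr19:41259994-41260023, + strand): ccttatccccacttgcagccctgtcttcct
TMED2 (chr12:123597439-123597468, + strand): tgtcccagtgagtggtggctttttttcttt
CNN3 (chr1:94897695-94897724, − strand): tcagtATTTAgtcctttgtttttattcagt
CAPZA1 (chr1:112671086-112671115, + strand): cagtatctttctattgtaacctgttATTTA
ANKRD1 (chr10:90912657-90912686, − strand): ttATTTAtttttatgtattcctgtttattt
ELAVL1 (chr19:7963078-7963107, − strand): ttttagttttagtttttaatctaaagatgt
FOXQ1 (chr6:1314464-1314493, + strand): gttttgtaattaaattATTTAtatattttt
CTNNB1 (chr3:41240196-41240225, + strand): tggtccaattagtttcctttttaatatgct
MSI2 (chr17:57680182-57680211, + strand): gttctttttgtgatgtctctttgttaatct

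These stretches differed widely. ACTB had 26 T among the 30 bases and AXL, whose peak was the third highest by gene, had only 10 T. ATTTA stood in the stretches of CNN3, CAPZA1, ANKRD1 and FOXQ1 and was absent from the other 6. The whole ANKRD1 peak held 3 ATTTA and the FOXQ1 peak 2. PHLDA1 gave no stretch because only 26 bases of its 3′-UTR lay in the exon under the peak.

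Most genes carried few 3′-UTR peaks. A single peak was found in 642 genes, 2 peaks in 388, 3 in 137, 4 in 45, 5 in 8 and 6 in 2, so 580 of 1222 genes, or 47.5% (Wilson 95% interval 44.7 to 50.3%), had 2 or more. Of the 388 genes with 2 peaks, 337 had 1 on each strand. When overlapping peaks were merged, the 2062 peaks formed 1600 loci, 458 of which held peaks of both strands, and only 26.4% of the genes (24.0 to 29.0%) had 2 or more loci. Intervals given for shares hold counting error alone, and peaks of 1 gene share a transcript and are not replicates.

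Genes with more peaks also had higher scores. The score is the peak caller's own value for the reads in a peak, with a scale that is not stated. The median of the highest score was 36.5 in genes with 1 peak, 67.5 with 2, 110.6 with 3 and 117.2 with 4. The median over a gene's peaks gave the same order, from 36.5 to 62.7, 102 and 108.9. The median 3′-UTR length changed less, from 2464 bases in genes with 1 peak to 2644 in genes with 4.

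**Figure D1:**
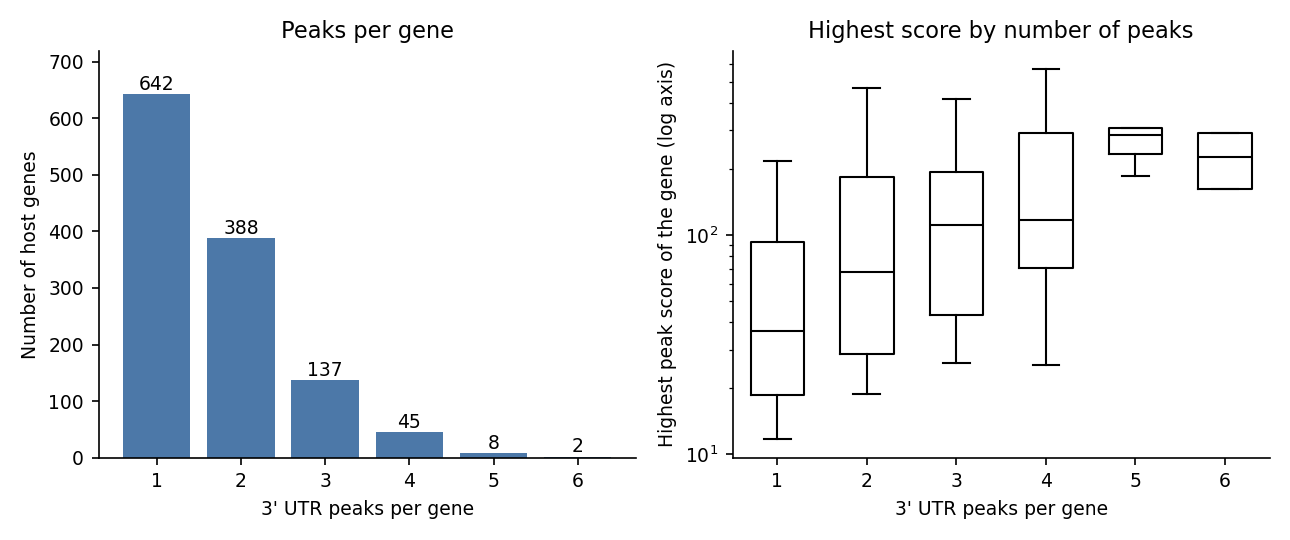
The left panel gives the number of host genes (bars) by the number of 3′-UTR peaks per gene. The right panel gives the highest peak score per gene on a log axis, with the median, the quartiles and whiskers from the 10th to the 90th percentile; the median climbs from 36.5 with 1 peak to 117.2 with 4, and the last 2 boxes hold 8 and 2 genes.

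Among the genes with the most peaks were QKI with 6 and TMEM41B, YES1, DPY19L1, SKA2, EDIL3, TMEM263, ATP6V1A and RELL1 with 5 each. QKI encodes an RNA-binding protein of the STAR family that acts in splicing and mRNA stability. Its 6 scores were 355.6, 312.5, 310.3, 308.6, 304.4 and 272.6, and all 6 centres lay within the first 2319 of 7882 bases of the 3′-UTR. YES1, a SRC-family tyrosine kinase, had scores from 204.1 to 309.1. ATP6V1A, the catalytic subunit of the proton pump that acidifies lysosomes, had scores from 159.6 to 185.2. SKA2, a component of the kinetochore complex that holds chromosomes to the spindle, had scores from 201.2 to 298.1, and these 5 peaks were its only peaks in the list. In each of these genes the scores lay within 2 times of each other, the widest being TMEM41B with 169.8 to 313.5. The ranges of most of these genes overlapped, and of those named only RELL1, with 93.5 to 119.9, lay below all the others.

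This closeness held for the multi-peak genes as a group. Over the 1419 peaks of the 580 genes with 2 or more, the SD of the log2 score was 1.72, and the pooled SD between peaks of 1 gene was 0.22. The highest score of a gene was 1.15 times its lowest at the median (quartiles 1.07 and 1.27), and all scores of a gene lay within 2 times of each other in 573 of 580 genes, or 98.8% (97.5 to 99.4%). The widest spread was in FKBP5, a co-chaperone of steroid receptors, with scores of 122.4, 105 and 23.7, or 5.16 times. The lowest of these 3 lay in a 3′-UTR outside the canonical transcript. UBE2D1, EIF4E and CDC42 followed with ratios of 2.78, 2.53 and 2.26. FKBP5 and CDC42 fall outside the fixed rule for naming genes and were named after their values were seen. Whether the peak caller kept lower peaks beside higher ones was not stated, so the part of its settings in this closeness was not tested. Of the 388 genes with 2 peaks, 337 had 1 on each strand. When overlapping peaks were merged, 26.4% of all host genes had 2 or more loci, against 47.5% with 2 or more peaks. Many of these scores thus come from overlapping windows, and the part of this overlap in the closeness was not tested.

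**Figure D2:**
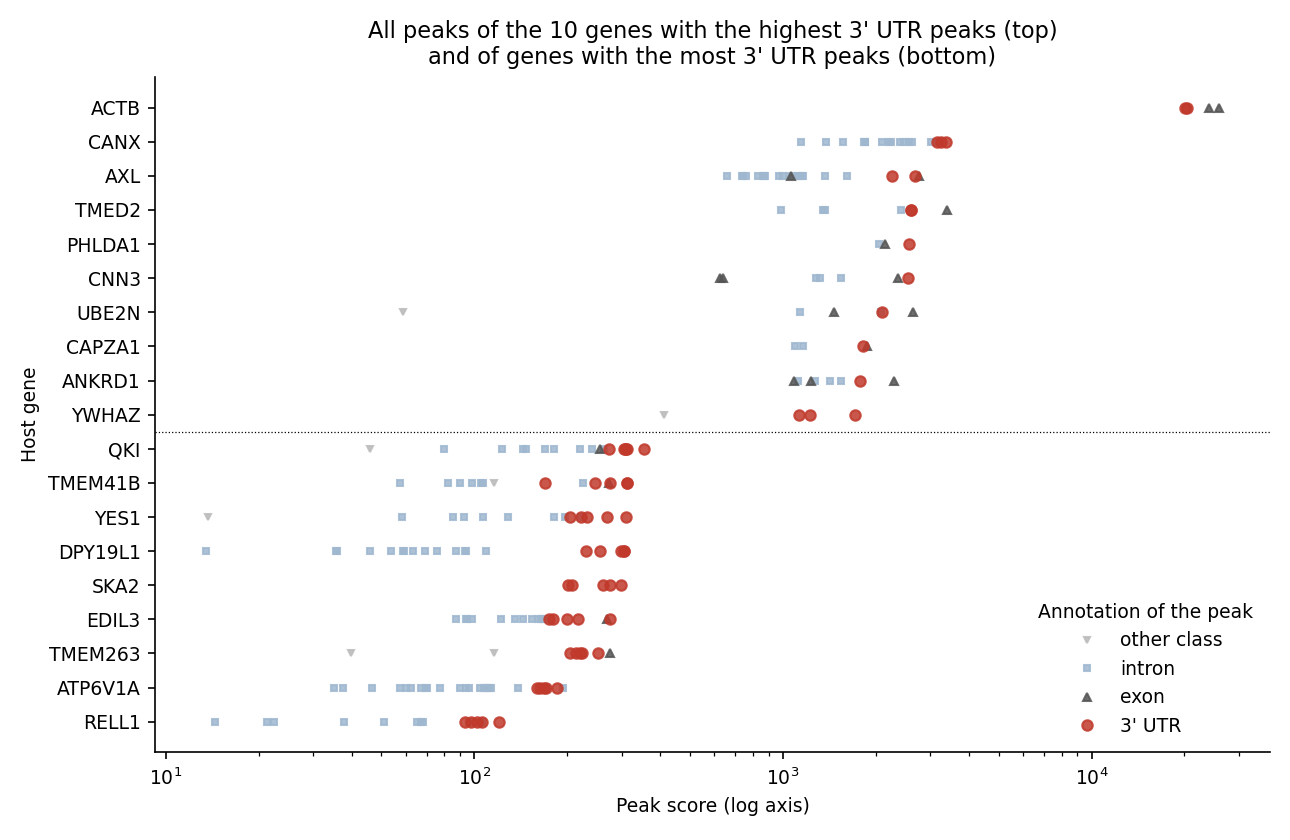
Each symbol is 1 peak, placed by its score (log axis) in the row of its host gene, with 3′-UTR peaks as circles, exon peaks as triangles and intronic peaks as squares. The genes with the highest 3′-UTR peaks are above the dotted line and genes with the most below it; in QKI the 6 circles lie between 272.6 and 355.6.

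Peaks of the same gene in other regions were set beside those in the 3′-UTR. Of the 1222 genes, 254, or 20.8% (18.6 to 23.2%), had peaks in the 3′-UTR and in no other class. CTNNB1, ZFP36L1, SKA2 and RAN were among these genes. In the 968 others, with a median of 4 other peaks, the highest peak of the gene was a 3′-UTR peak in 618, or 63.8% (60.8 to 66.8%). Against intronic peaks of the same gene, the median 3′-UTR score was higher in 781 of 838 genes, with a median log2 difference of 1.03 (quartiles 0.62 and 1.39). Against exon peaks it was higher in 310 of 527 genes, with a median log2 difference of 0.11 (quartiles −0.20 and 0.41). Across genes the medians of the 3′-UTR and exon peaks ran together (Spearman rho = 0.91, n = 527 genes), as did those of 3′-UTR and intronic peaks (rho = 0.90, n = 838 genes). These points share libraries and transcripts, and genes are not independent replicates.

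Over the whole list, 3′-UTR peaks had the highest median score of the annotation classes. Scores in 3′-UTRs lay between 8.81 and 20370.7. Their median was 65.45, and their quartiles were 25.9 and 166.6. The median score was 50.7 on non-coding transcripts, 44 in exons, 39.65 at termination sites, 34.3 in 5′-UTRs, 32.8 at promoters, 28.6 in introns and 17.1 between genes. The quartile ranges of all these classes overlapped that of the 3′-UTR. Of the 2062 peaks, 1389, or 67.4% (65.3 to 69.4%), reached the median of the whole list, 34. Peaks in 3′-UTRs were 28 of the 100 highest peaks, 274 of the 1000 highest and 79 of the 1000 lowest. No replicate values exist, so these differences between classes could not be set against a spread between samples.

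**Figure D3:**
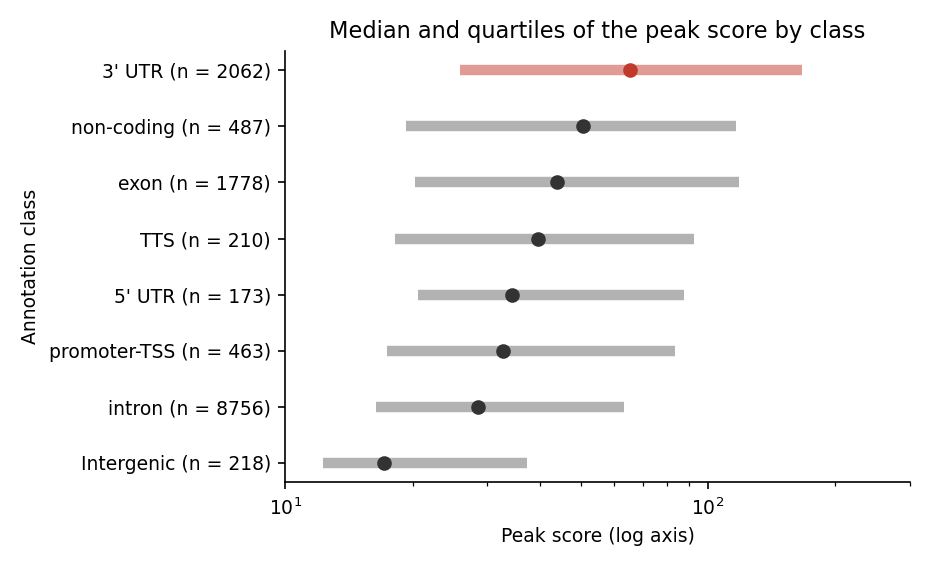
Median (point) and quartiles (bar) of the peak score on a log axis for each annotation class, with the number of peaks; TTS stands for transcription termination site. The 3′-UTR class has the highest median, 65.45, and its bar overlaps every other bar.

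The sum of the scores was concentrated in few genes. A score of 1000 or more was reached by 41 peaks in 27 genes, 70 genes held 50% of the summed 3′-UTR score, and the 2 peaks of ACTB alone held 11.3%. ACTB, which encodes cytoplasmic beta-actin, had an antisense peak on chr7:5527556-5527902 with a score of 20370.7 and a sense peak on chr7:5527292-5527638 with 20120.4. Here sense means that the strand listed for the peak was that of the gene. Both were centred in the 600 bases of its 3′-UTR, 19 and 283 bases after the stop codon. The antisense peak, centred at 19 and 347 bp long, also covered bases before the stop codon. CANX, the gene of the endoplasmic reticulum chaperone calnexin, followed with 3376.1, 3242.2 and 3152.9. AXL, a receptor tyrosine kinase, had peaks of 2682.6 and 2262.6, centred 39 and 1363 bases after the stop codon. TMED2, a cargo receptor of early secretory vesicles, had 2601.3 and 2598.4.

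The other 6 of the 10 genes with the highest peaks scored from 1718.1 to 2562.2. PHLDA1, an early-response gene, reached 2562.2 and CNN3, the gene of the actin-binding protein calponin 3, reached 2550.2, and both peaks were centred 24 bases after the stop codon. Windows of 347 bp centred so near the stop codon, like the higher AXL peak, also cover bases before it. Only 26 bases of the PHLDA1 3′-UTR lay in the exon under its peak. UBE2N, which joins ubiquitin chains through lysine 63, followed with 2098.7. The actin-capping subunit gene CAPZA1 had 1817.2 and ANKRD1, a gene known as a target of YAP, had 1776.6. YWHAZ, a 14-3-3 adaptor gene, had 3 peaks of 1718.1, 1221.1 and 1128.6. ACTB thus stood far above the next gene, whereas neighbours further down lay close to each other. In ACTB, AXL, TMED2, UBE2N, CAPZA1 and ANKRD1 the highest peak lay in an exon, with 25897.6, 2768.7, 3392.2, 2638.5, 1874.3 and 2297.1. In CANX, PHLDA1, CNN3 and YWHAZ the highest peak was a 3′-UTR peak.

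Low scores fell on a common step, which gives an idea of the reads behind them. Of the 11121 scores under 100 in the whole list, 99.2% lay within 0.05 of a whole multiple of 0.2447, a band that covers 40.9% of the scale. If 1 step is 1 read, which the sources used here do not state, the lowest 3′-UTR score stood for 36 reads and the median for 267. The exact Poisson 95% interval was then 6.17 to 12.2 for the lowest score, 57.7 to 73.7 for the median and 154.4 to 179.6 for the upper quartile.

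Of 2052 peaks with a known gene strand, 1210 were sense, or 59.0% (56.8 to 61.1%), and 842 were antisense. The share was 41.5% (39.3 to 43.9%) of exon peaks and 55.7% (54.6 to 56.7%) of intronic peaks, so the intervals of the 3 classes did not overlap. The median score was 67.4 for sense and 62.15 for antisense 3′-UTR peaks. Among 1215 genes, 523 had peaks of both kinds, 472 sense peaks alone and 220 antisense peaks alone. When only the highest peak of each gene was counted, 71.9% (69.3 to 74.4%) were sense.

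Peaks of both strands stood in pairs. In 506 genes, 590 antisense peaks had a sense peak in the same 3′-UTR, and 546 of these pairs were within 1000 bases. The sense peak lay further from the stop codon in 473 of the 546, with a median offset of 177 bases (quartiles 112 and 217). The scores within a pair were close, with a median log2 ratio of sense over antisense of 0.10 (quartiles 0.01 and 0.22). The sense score was the higher in 418 pairs, or 76.6% (72.8 to 79.9%). The Poisson intervals of the 2 scores overlapped in 440, or 80.6%. The 2 windows of a pair often cover the same bases, and overlap of intervals is not a test of a difference. The ELAVL1 pair was 1 of the 73 with the sense peak nearer the stop codon, with 812 on the antisense and 799.5 on the sense strand. The TruSeq RNA kit named in the labels does not mark the strand of the RNA, so a peak's strand is that of its reads and not that of a transcript.

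The position in the 3′-UTR was measured for the 1976 peaks centred in the 3′-UTR of the canonical GENCODE transcript of their host, in 1174 genes. The centre was 843.5 bases after the stop codon at the median (quartiles 351 and 1462) and 1427 bases before the annotated 3′ end (quartiles 715 and 2430). The first 20% of the 3′-UTR length held 644 peaks, or 32.6% (30.6 to 34.7%). Each following 20% held 22.0%, 19.6%, 17.4% and 8.45%. Per kb of host 3′-UTR there were 1.16 peaks at 200 to 500 bases from the stop codon, 0.829 at 500 to 1000 and 0.677 at 1000 to 2000, against 0.582 over all 3396 kb. The median score was 71.2 in the first 20% and 56.3 in the last. Canonical transcripts can end beyond the 3′ end used in these cells, which was not measured here.

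Both ends of the 3′-UTR had their own pattern of strands, and the part of the offset within pairs in it was not tested. From 200 to 400 bases after the stop codon there were 217 sense and 81 antisense peaks, whereas the first 200 bases held 121 and 129. In the last 20% of the 3′-UTR, 72.5% of 167 peaks were sense. No 3′-UTR peak was centred in the last 100 bases, and the nearest lay 107 bases from the end. Peaks at that end were listed under termination sites, a class of 210 peaks, of which 45 were centred in the canonical 3′-UTR of their host and 7 in its last 100 bases. The part of this division of classes in the low count at the very end was not tested. Neighbouring peaks of 1 strand in 1 gene were widely spaced, with a median gap of 1114 bases (quartiles 943 and 1470, 296 gaps).

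**Figure D4:**
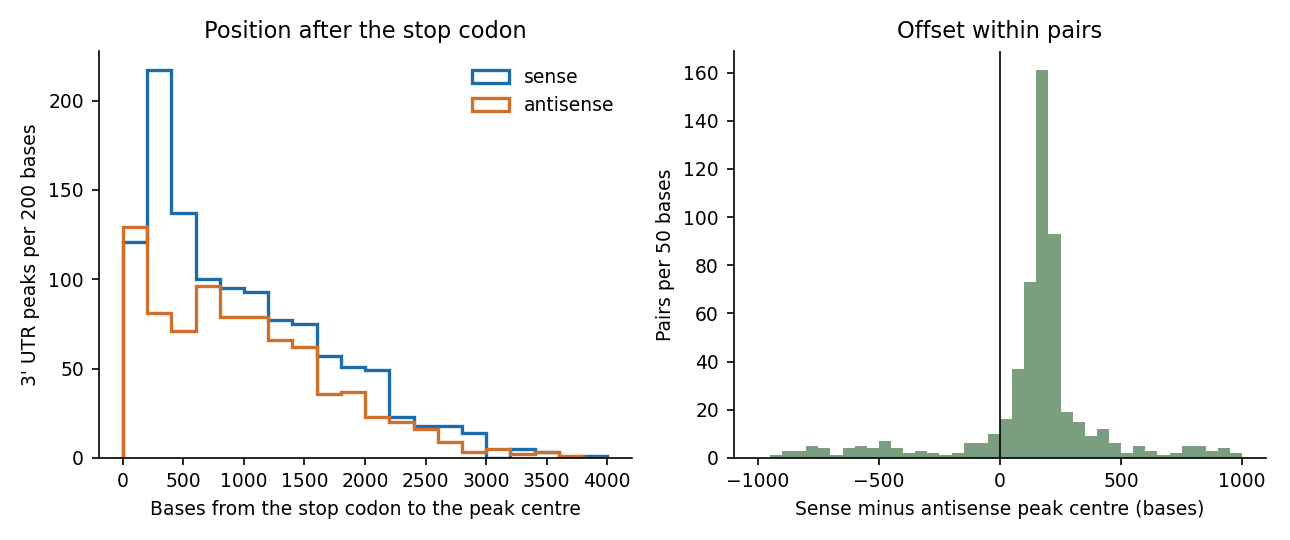
The left panel counts 3′-UTR peaks per 200 bases by the distance of their centre from the stop codon, for sense and antisense peaks; 4 peaks lie beyond the 4000 bases shown. The right panel counts pairs per 50 bases by the offset of the sense from the antisense centre; most pairs lie to the right of 0, around the median of 177 bases.

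Longer 3′-UTRs more often held a peak, up to 4000 bases. Of 19527 protein-coding genes with an annotated 3′-UTR, 1218, or 6.24% (5.91 to 6.59%), had a 3′-UTR peak. The share was 0.268% of 5974 genes with a 3′-UTR under 500 bases, 2.39% from 500 to 1000, 8.21% from 1000 to 2000, 14.3% (13.3 to 15.5%) from 2000 to 4000 and 10.7% (9.50 to 12.1%) at 4000 and above. The median length was 2535.5 bases in genes with a peak and 973 in the others. A 347 bp peak cannot lie wholly within the shortest 3′-UTRs, and the abundance of the transcripts was not measured.

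The focus ratio, a fraction that describes how the reads of a peak are placed about its centre, varied little. Its median was 0.556 (quartiles 0.529 and 0.591), and 1453 peaks, or 70.5%, lay between 0.5 and 0.6. It was 0.5435 at the median in exons and 0.528 in introns. It had almost no relation to the score (Spearman rho = −0.09, n = 2062 peaks), and its median went from 0.566 in the lowest 517 to 0.554 in the highest 516 scores. The 24 peaks over 0.7 had a median score of 23.1. Among peaks at or above the list's median score, the highest ratios were 0.781 in SPCS2, 0.751 in SMS and 0.739 in LSM12, and the lowest were 0.312 in SPCS2, 0.361 in LPCAT4 and 0.363 in GEMIN2. SPCS2, a subunit of signal peptidase, stood at both ends, with an antisense peak of 132.9 and a sense peak of 74.6 in 1 3′-UTR. SMS encodes spermine synthase and GEMIN2 a factor that assembles spliceosomal ribonucleoproteins.

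The gene column of the list often named another gene than the transcript. It differed from the host for 1211 of 2061 peaks, or 58.8% (56.6 to 60.9%), and it names the gene with the nearest start site. Where both differed, the peak lay upstream of the start site of the named gene in 776 cases, with a median distance of −6269 bp. Where they were the same, the start site was 24789.5 bp away at the median. The CANX peaks were named MAML1, those of AXL HNRNPUL1, those of ELAVL1 TIMM44 and those of TMED2 DDX55. Only 40 of the 2062 peaks, or 1.94% (1.43 to 2.63%), overlapped an exon of another protein-coding gene.

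Sequence was then read on the strand of the host gene in 2052 windows of 347 bases. ATTTA was present in 52.7% of the 3′-UTR peaks (50.5 to 54.8%), 35.7% of exon peaks and 55.7% of intronic peaks. It was present in 50.6% of all peaks of the list, in 46.5% of 90007 tiles of the same length that cover all canonical 3′-UTRs, and in 57.6% (56.6 to 58.6%) of the 9571 tiles of the host genes alone. The peaks thus held the pentamer more often than 3′-UTRs in general and less often than the 3′-UTRs of their own genes. Among the 1731 peaks wholly inside the canonical 3′-UTR the share was 53.8% (51.4 to 56.1%). Peaks and tiles were not matched for position in the 3′-UTR. A run of TTTTT, which can overlap other matches, was in 78.5% of the peaks, 61.6% of all tiles and 78.2% of the host tiles. The heptamer TATTTAT was in 8.24%, 9.0% and 11.2%, and the nonamer TTATTTATT in 0.975%, 1.75% and 2.03%. Both include the pentamer.

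Other 3′-UTR signals and the base composition were read in the same windows. The polyadenylation signal AATAAA was in 22.1% of the peaks and 26.4% of the host tiles, and it was in 25.8% of sense and 16.7% of antisense peaks. No 3′-UTR peak was centred in the last 100 bases, so the peaks and the tiles differ in the positions they cover. The Pumilio motif TGTANATA was in 6.58% of the peaks and 7.99% of the host tiles. T made up 32.6% of the bases of 3′-UTR peaks, 26.0% of exon peaks and 33.1% of the host tiles. The score did not follow the number of pentamers. The median was 69.3 in 971 peaks without ATTTA, 61.9 in 657 with 1, 55.2 in 286 with 2, 71.2 in 101 with 3 and 59.7 in 37 with 4 or more, and the quartile ranges overlapped throughout. The number of ATTTA in a peak reached 6, in PIP4P2 with a score of 26.7 and TMEM68 with 18.8, both named after their values were seen. A match describes the sequence and is not a measured site of HuR.

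Gene function was described with 18 lists of genes, which together held 141 of the host genes, or 11.5%. Counts are read against the 6.24% of all protein-coding genes with a 3′-UTR peak. A peak of any class was in 15.7% of all protein-coding genes. Among the lists below, it was in 23 of 47 secretory genes, 23 of 41 readers of 3′-UTR elements, 28 of 52 mRNA decay genes and 20 of 63 RAB genes. The higher shares of these lists were thus not particular to 3′-UTR peaks. Of 41 readers of AU-rich and other 3′-UTR elements, 9 had a 3′-UTR peak, or 22.0% (12 to 36.7%), and 6 of them had 2 or more. They included ELAVL1 with a highest score of 812, ZFP36L1, which promotes decay of AU-rich mRNAs, with 415.3, QKI with 355.6 and LARP1, a regulator of ribosomal protein mRNAs, with 281.4. In the mRNA decay and microRNA machinery, 10 of 52 genes had a peak (19.2%, 10.8 to 31.9%). EIF4E, the cap-binding translation factor, had 800.5, the decapping helicase gene DDX6 284.1 and the deadenylase genes CNOT7 and PAN3 137.3 and 96.4. Among hnRNP and SR splicing factors there were 2 of 34, TRA2A with 575.6 and HNRNPUL1 with 277.8.

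Of the lists, that of early secretory genes had the largest share with a 3′-UTR peak. Of 47 endoplasmic reticulum and secretory genes, 11 had a 3′-UTR peak, or 23.4% (13.6 to 37.2%), with a median highest score of 532.7 against 54.2 over all host genes. CANX and TMED2 led, followed by SAR1A, the GTPase that starts the COPII coat, with 842.6 and ARCN1, a subunit of the COPI coat, with 795.6. Of 63 RAB small GTPases, which direct vesicle traffic, 13 had a peak (20.6%, 12.5 to 32.2%), led by RAB11A with 455.2, RAB12 with 442.9, RAB8B with 328.9 and RAB6A with 307.9. Nuclear transport receptors gave 5 of 32, with NUTF2 at 1216.2, KPNB1 at 793.9, KPNA4 at 413.6 and RAN at 218.8. Ubiquitin-conjugating enzymes gave 5 of 33, with UBE2N at 2098.7, UBE2D3 at 328.9, UBE2E2 at 193.8 and UBE2D1 at 89.1.

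Adhesion, matrix and epithelial-mesenchymal transition genes had a 3′-UTR peak in 10 of 50 cases (20%, 11.2 to 33.0%), with a median highest score of 411.9. AXL led with 2682.6, then the tetraspanin CD9 with 1030.7, CTNNB1 with 834 and the hyaluronan receptor CD44 with 762.5. Receptor kinases and RAS-MAP kinase genes gave 8 of 59, and apart from AXL they scored lower, with MAP3K1 and RASA2 at 56.3 each. Transforming growth factor beta and SMAD genes gave 4 of 33, from TGIF2 with 114.5 through BMPR1A with 68.8 and LTBP1 with 35.2 down to SMAD1 with 16.4. Cytokines and growth factors, many of which carry AU-rich elements, gave 6 of 42. FGF5, a fibroblast growth factor, had 1339.6, EREG, a ligand of the EGF receptor, 212.2, PDGFA 152 and VEGFA 51.6.

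Cell cycle genes had a 3′-UTR peak in 8 of 55 cases (14.5%, 7.56 to 26.2%). The G1 cyclin gene CCND1 had 551.8, RB1 242.3 and the spindle checkpoint gene BUB3 160.8. Apoptosis regulators gave 6 of 44, with BIRC5, which encodes survivin, at 696, BNIP2 at 194.3, BNIP3L at 165.4 and CASP2 at 117.2. Immediate early and stress response genes gave 5 of 44, with PHLDA1 at 2562.2, the phosphatase gene DUSP5 at 284.6, RHOB at 103.3 and BHLHE40 at 72.2. The intervals of the immediate early list (4.95 to 24.0%), the transforming growth factor beta list (4.82 to 27.3%) and the splicing factor list (1.63 to 19.1%) held the 6.24% of all genes, and that of the apoptosis list (6.40 to 26.7%) began just above it.

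Large gene families were counted in the same way. Of 505 ZNF zinc finger genes 19 had a 3′-UTR peak (3.76%, 2.42 to 5.80%), with ZNF22 at 324.7, ZNF217 at 141.9, ZNF280C at 89.8 and ZNF507 at 72.4. Of 336 SLC solute carriers there were 19 (5.65%, 3.65 to 8.66%), with the amino acid carrier SLC38A2 at 774.5, SLC25A24 at 583.4, SLC39A10 at 213.9 and SLC30A9 at 138.5. Of 84 ribosomal protein genes 1 had a 3′-UTR peak, RPS27L with 25 (1.19%, 0.210 to 6.44%). Of 78 nuclear genes of the respiratory chain 1 had a peak, NDUFV3 with 20.1 (1.28%, 0.227 to 6.91%). Both intervals, and that of the SLC list, held the 6.24% of all genes. Among all genes with a 3′-UTR under 500 bases the share was 0.268%. The median 3′-UTR was 169 bases long in the ribosomal and 182.5 in the respiratory list, against 1826 in the secretory list and 2101 in the RAB list. The share of each list was not adjusted for 3′-UTR length or transcript level, and their part was not tested.

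**Figure D5:**
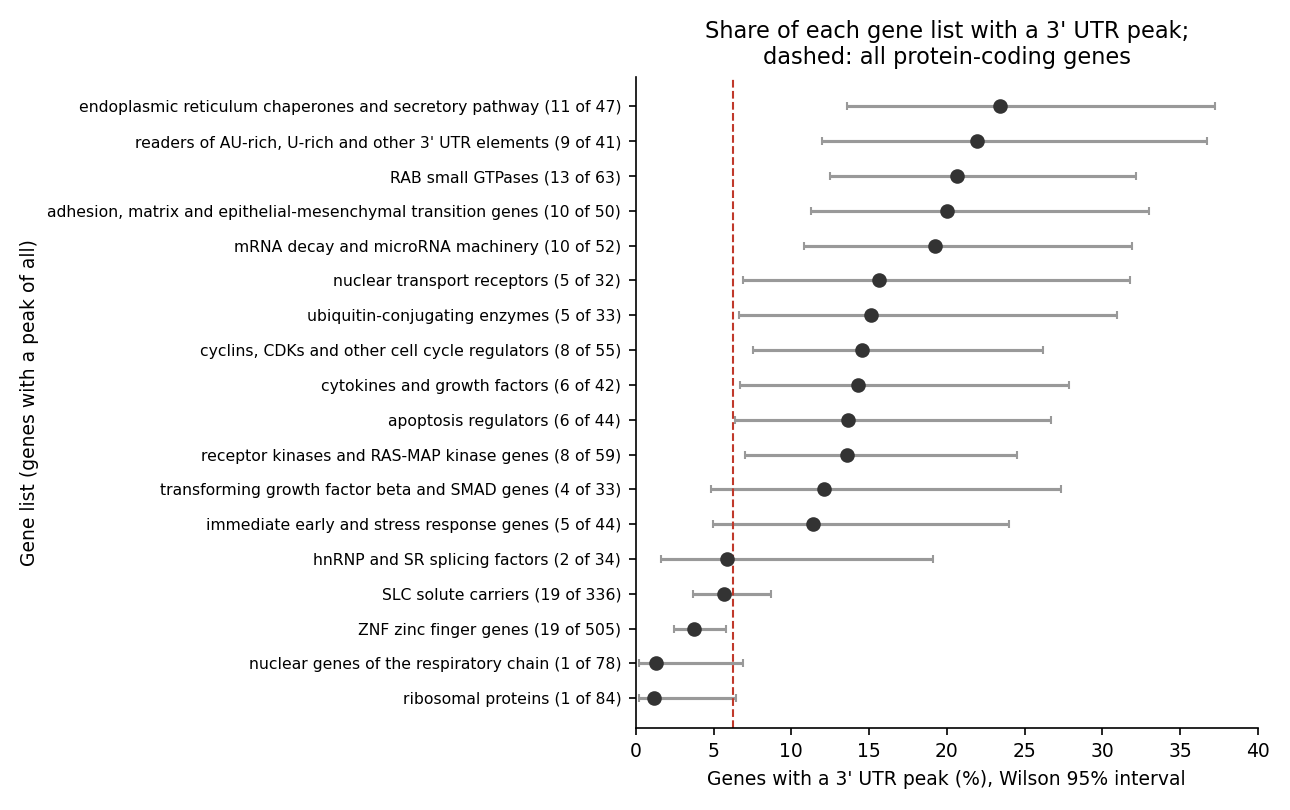
Share of each gene list with at least 1 3′-UTR peak (points) with Wilson 95% intervals (bars); the dashed line marks the 6.24% of all protein-coding genes. The secretory list is highest at 23.4% and the ribosomal list lowest at 1.19%, with an interval that holds the dashed line.

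Of the 14 genes the study discusses, 4 had a 3′-UTR peak, beside 6.24% of all protein-coding genes. The 14 are not all proposed targets of HuR, and ELAVL1 encodes HuR itself. The study picked FOXQ1 from the genes shared by its HuR-bound RNAs and those affected by a HuR inhibitor. It places CTNNB1 in the same overlap. The share of the 14 is therefore not independent of these data. CTNNB1, which encodes beta-catenin, had 1 sense peak of 834 on chr3:41240122-41240468, centred 148 bases before the end of its 1101-base 3′-UTR, with a focus ratio of 0.664 and no ATTTA in the peak. The 2 ELAVL1 peaks lay 501 and 523 bases after the stop codon of a 4910-base 3′-UTR. MSI2, which encodes the translational regulator Musashi 2, had 1 antisense peak of 164.7 at 778 of 5172 bases, 1 of its 19 peaks in all. FOXQ1, the forkhead factor gene followed up in the study, had a sense peak of 30.6 at 473 and an antisense peak of 27.2 at 279 of 842 bases, both below the 3′-UTR median and with focus ratios of 0.668 and 0.636. XIAP had 3 peaks but none in its 3′-UTR of 6791 bases, and the list held 0 peaks for BCL2, CD82, CDH1, CDH2, LAMA4, MMP9, MSI1, PLAUR and SNAI1. The list is a selection of the called peaks, so a gene without a peak was not shown to be unbound. The study names BCL2, XIAP, MSI2 and MSI1 as known HuR targets and cites earlier reports of binding for SNAI1, MMP9 and PLAUR. In a separate assay in these cells it reported 3 target mRNAs, and also FOXQ1 mRNA, enriched with the HuR antibody over IgG. For SNAI1 it reported no binding, and it followed CDH1, CDH2, CD82 and LAMA4 for their expression.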

How the data were processed

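RNA from HuR and IgG immunoprecipitates of MDA-MB-231 cells was sequenced, and samples were grouped by antibody. Per the labels and methods, the authors aligned reads with STAR to hg38, called peaks with HOMER and selected peaks with a change in transcript abundance. Annotation was by ANNOVAR in the methods but by a HOMER command in the list's header. Versions, settings, the threshold and any pooling are not given in the sources used here. The deposited list gives a score per peak, a focus ratio (a fraction between 0 and 1) and the distance to the nearest start site. Depth per library is unknown. Gene models were GENCODE 44 and RefSeq GRCh38.p14, of the same build as the list, with 1-based coordinates. Peaks were placed by their centre. Motifs were counted on the gene's strand in hg38.

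Without values per sample no test was possible, so counts, medians, quartiles and Wilson 95% intervals describe the list. Members and gene lists were chosen with earlier results of these data known. Genes were named by a rule: the 10 with the highest peaks, the 10 with the most peaks, up to 4 leading genes per list, the extremes of focus ratio and 14 study genes, some of which are not reported here. Python 3.11.15, numpy 2.4.6, pandas 2.3.3, scipy 1.17.1, pysam 0.24.0 and matplotlib 3.10.9 were used, and the functions were tested on simulated data. Alternatives were a score minimum at the list's median, merged loci, the highest peak per gene, the gene column, canonical 3′-UTRs and other motifs.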

Additional observations from a re-analysis of the deposited data

How the results depend on the processing

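Of 23 alternatives to 9 results, 12 stayed within 1.5 times of a count or within the 95% interval of a share or median. With scores at or above the list's median, the host genes were 770 in place of 1222, 53.1% of them had 2 or more peaks, the median focus ratio was 0.553, and 3.93% of protein-coding genes had a 3′-UTR peak; fewer peaks were counted by construction. Merged loci gave 26.4% of genes with 2 or more. The median score was 54.2 over the highest peak of each gene and 36.5 in genes with a single peak, and the share on the gene's strand was 71.9% over the highest peaks. In place of ATTTA in 52.7%, TATTTAT was in 8.24% and TTTTT in 78.5% of peaks. In canonical transcripts, 7.01% of genes had a peak. The cause was not tested unless stated. No paired analysis was possible because scores were not given per sample, and for the same reason no replicate could be left out.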
